A study of Mus musculus with 15 samples.

Results

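The PIM kinases are 3 related serine/threonine kinases, Pim1, Pim2 and Pim3, and all 3 had a row among the 17493 genes of the count tables. They were taken by gene symbol, and were proposed because of their levels over the groups described here, so those levels and their differences are given as a description with no p-value. How many members passed the test of all genes is counted once, beside the share of all genes that passed, and nothing is read from that count. All 3 passed the filter on low counts that left 10831 genes, and the lowest count of any member in any library was 75.

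PIM kinases have no known regulatory domain that must be phosphorylated before they act, and are held to be active as soon as they are made. Their amount in a cell therefore follows the level and stability of mRNA and protein. In T cells their transcription is known to follow cytokine receptors that signal through JAK kinases to STAT5 and STAT3, and also NF-κB. They phosphorylate regulators of survival, cell cycle and cap-dependent translation, some of which AKT also phosphorylates.

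Bulk RNA was measured in CD8+ OT-I T lymphocytes of female mice of strain C57BL/6-Tg(TcraTcrb)1100Mjb, taken from spleen and lymph nodes. All groups share this transgenic T cell receptor, so nearly every cell has 1 specificity. The 15 libraries form 5 groups of 3: untreated cells at 0 h (unstimulated), cells after 8 h or 22 h with 5 ng/ml immunofilaments labelled IF-pMHC(SIIT)/IL-2 (IF 8 h and IF 22 h), and cells after 8 h or 22 h with 20000 dendritic cells per well (DC 8 h and DC 22 h). Immunofilaments are synthetic filaments, which by this label carried peptide-loaded MHC and interleukin-2. The dendritic cells had been grown with Flt-3 ligand and loaded with the SIITFEKL peptide. Each well held 50000 T cells, and viable cells that were CD8+ and CD103- were sorted before lysis. The titles number the replicates Don1 to Don3 in each group and do not spell out Don. The age of the mice, any pooling of animals and whether a number marks the same animal in each group were not given in the sources used here. P-values therefore measure only the spread between these samples, which may be technical.

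Total counts ran from 2892874 to 19806730 per library, and 11427 to 13591 genes had a count. IF 22 h replicates 2 and 3 stood apart: mitochondrial ribosomal RNA took 0.179% and 0.146% of their counts, against 1.82% to 4.49% in the 13 others. Fold changes of the members and counts of pathway genes that rest on IF 22 h are given with and without them. Expression is the normalised read count (CPM, a gene's count relative to its library total, with totals corrected by edgeR's trimmed mean of M values, TMM), and group values are mean ± SD with n = 3. A log2 fold change comes with its standard error (SE) from 1 edgeR quasi-likelihood model of all 15 libraries. Of 15 T cell markers, 12 were in the tables and had counts in every library. Their summed level was 11782 to 12847 CPM in unstimulated cells and 5513 to 8621 CPM in the 12 stimulated libraries, so it was lower in every stimulated library than in any unstimulated one. The part of this shift in the differences from unstimulated cells was not tested. Of 4 markers of CD4 T cells, Cd4 and Foxp3 were at 0 in at least 1 library of every group. Foxp3 still averaged 3.77 CPM at IF 8 h. Zbtb7b had a count in every library, and Cd40lg in every unstimulated and DC 22 h library. The summed level of the 4 was at most 10.3 CPM, in a library of IF 8 h. In bulk samples, fewer cells of a type and less RNA per cell cannot be told apart.

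All genes below are placed on GRCm38 by GENCODE vM21. Pim1 (ENSMUSG00000024014.8) lies at chr17:29490753-29496112 on the plus strand, Pim2 (ENSMUSG00000031155.16) at chrX:7878262-7883432 on the plus strand, and Pim3 (ENSMUSG00000035828.11) at chr15:88862186-88865726 on the plus strand. Each has 6 exons in the transcript examined. Exons of Pim1 overlap those of Gm26885 on the opposite strand, and the use of strand in counting was not given in the sources used here, so reads of the pair cannot be told apart if strand was ignored. The longest stretch shared between the transcripts was 24 bases (Pim1 and Pim3) and 17 bases (both other pairs). The read used for mapping has 60 cycles, longer than any of these stretches.

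The promoters of the family are shown because its members differed in level across the groups. These are RefSeq sequences (GRCm38.p6) from 250 to 51 bases before the start site, on the plus strand, at chr17:29490535-29490734 (Pim1), chrX:7878056-7878255 (Pim2) and chr15:88861944-88862143 (Pim3). Capitals mark matches on either strand to the NF-κB core (GGG, any 5 bases, CC), which may overlap each other.
Pim1: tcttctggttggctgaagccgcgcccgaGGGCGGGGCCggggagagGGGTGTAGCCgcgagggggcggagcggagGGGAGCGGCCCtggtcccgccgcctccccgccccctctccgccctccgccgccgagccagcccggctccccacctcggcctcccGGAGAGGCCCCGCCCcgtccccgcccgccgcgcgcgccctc
Pim2: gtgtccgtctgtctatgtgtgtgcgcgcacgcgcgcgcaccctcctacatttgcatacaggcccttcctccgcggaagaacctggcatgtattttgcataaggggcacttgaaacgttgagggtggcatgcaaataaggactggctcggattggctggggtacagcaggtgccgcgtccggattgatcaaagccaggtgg
Pim3: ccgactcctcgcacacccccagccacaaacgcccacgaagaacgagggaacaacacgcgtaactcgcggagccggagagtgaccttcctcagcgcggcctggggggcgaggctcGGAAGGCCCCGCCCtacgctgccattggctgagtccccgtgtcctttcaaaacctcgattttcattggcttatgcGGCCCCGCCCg
Over the 250 bases before the start, the Pim1 promoter held 7 matches to the core, the Pim3 promoter 4 and the Pim2 promoter 0. The core is loose and rich in G and C: 45.8% of 32851 promoters of this length held it. G and C made up 82.4% of the bases for Pim1, 68% for Pim3 and 62% for Pim2, beside a median of 52.4% over all promoters. The other motifs searched, on both strands, were TTCNNNGAA (STAT), TGANTCA (AP-1), TGACGTCA (CRE) and GGAAGT (ETS core), which 7.02%, 6.75%, 1.55% and 19.7% of all promoters held. None of these 4 had a match in the 250 bases before the listed start of any PIM gene. RefSeq lists another Pim1 start further into the gene, whose window held no match to any of the 5 motifs.

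The 3′ untranslated regions differed in AU-rich elements, which decay factors such as Zfp36 are known to bind. Pim1 had 5 ATTTA pentamers in 1365 bases, Pim2 had 2 in 915 and Pim3 had 5 in 964. The longer nonamer TTATTTATT was found 3 times in Pim1 and 0 times in both others. Of 21020 genes with an annotated 3′ untranslated region, 65.2% held the pentamer and 7.66% the nonamer, with a median length of 961 bases. The Pim1 nonamers overlap in 1 run of 17 bases, from base 952 to base 968 of the region, shown here in capitals.
Pim1 AU-rich run: atgtatTTATTTATTTATTTATTtggttg

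Pim1, the founding member and a known early cytokine response gene, had overlapping ranges in 4 groups and was very low in 2 single libraries of the other one. In unstimulated cells its replicates 1, 2 and 3 had 391, 298 and 390 CPM. At IF 8 h they had 333, 388 and 617 CPM, and at DC 8 h 346, 480 and 557 CPM. The ranges of these 3 groups overlapped, and each stimulated group spread more widely than the unstimulated one.

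At 22 h with dendritic cells the Pim1 values were 338, 394 and 587 CPM for replicates 1 to 3. At IF 22 h they were 277, 50.2 and 26.2 CPM. Replicate 1 of IF 22 h was thus the lowest of the 13 remaining libraries, but close to the lowest unstimulated one, while replicate 2 was 5.53-fold and replicate 3 was 10.6-fold below it. The low values rest on 420 and 514 counts. Relative to the deposited total, before TMM, they were 47.7 CPM (95% Wilson interval 43.4 to 52.5) and 26 CPM (23.8 to 28.3). Replicate 1 had 292 CPM (280 to 304) by the same measure, and these intervals cover counting error only.

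The group means of Pim1, in rising order, were 118 ± 139 CPM at IF 22 h, 360 ± 53.4 in unstimulated cells, 439 ± 131 at DC 22 h, and 446 ± 150 (IF) and 461 ± 107 (DC) at 8 h. Only the lowest pair of neighbours, IF 22 h and unstimulated, had ranges that did not overlap. The log2 fold change against unstimulated cells was 0.31 ± 0.56 for IF and 0.36 ± 0.55 for DC after 8 h, and 0.29 ± 0.55 for DC and -1.61 ± 0.57 for IF after 22 h. With IF 22 h replicate 1 alone, assumed to vary like the other groups, the last value was -0.37 ± 0.36. The difference between IF 22 h and DC 22 h was -1.90 ± 0.57, and -0.67 ± 0.37 with replicate 1 alone. Between IF 22 h and IF 8 h it was -1.92 ± 0.57, and -0.68 ± 0.37 with replicate 1 alone.

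**Figure D1:**
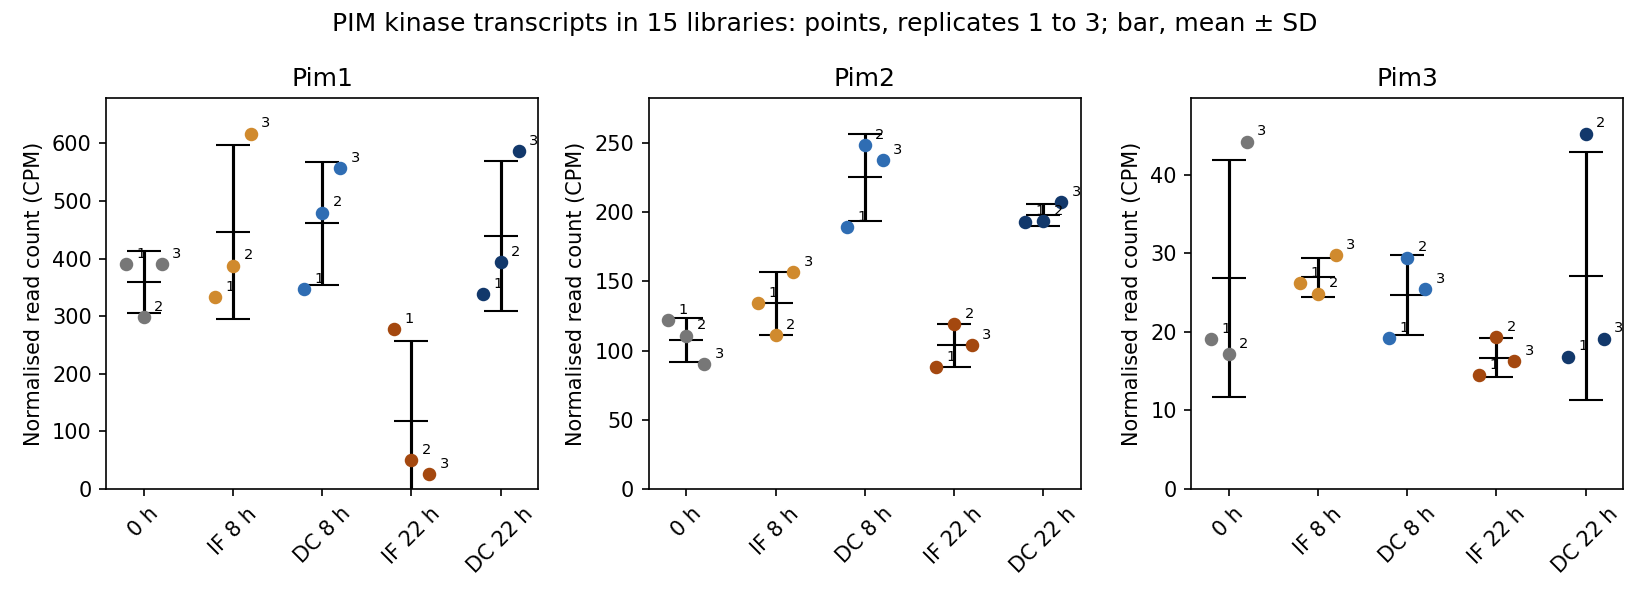
Normalised read count (CPM, linear axis from 0) of Pim1, Pim2 and Pim3 in each of 15 libraries; points are replicates 1 to 3, the long bar is mean ± SD over 3 libraries, and the bar of Pim1 at IF 22 h is cut at 0 because its SD exceeds its mean. Pim1 drops to 50.2 and 26.2 CPM in IF 22 h replicates 2 and 3, and Pim2 lies between 189 and 249 CPM in the 6 DC libraries.

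The same 2 libraries were low for many other genes. Of 10831 genes, 127 had, in both of them, less than the lowest of the 13 other libraries by over 2-fold, and 1 gene had over 2-fold more than the highest. Pim1 was among the 127, at rank 31 by the size of the gap, and Pim2 and Pim3 were not. Of 102 tested genes on the pathway lists used below, 3 were in that set: Eif4ebp2, which binds the cap-binding protein eIF4E, Elf1, an ETS factor, and Il6ra, the interleukin-6 receptor. The part of this library difference in the Pim1 value was not tested.

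**Figure D2:**
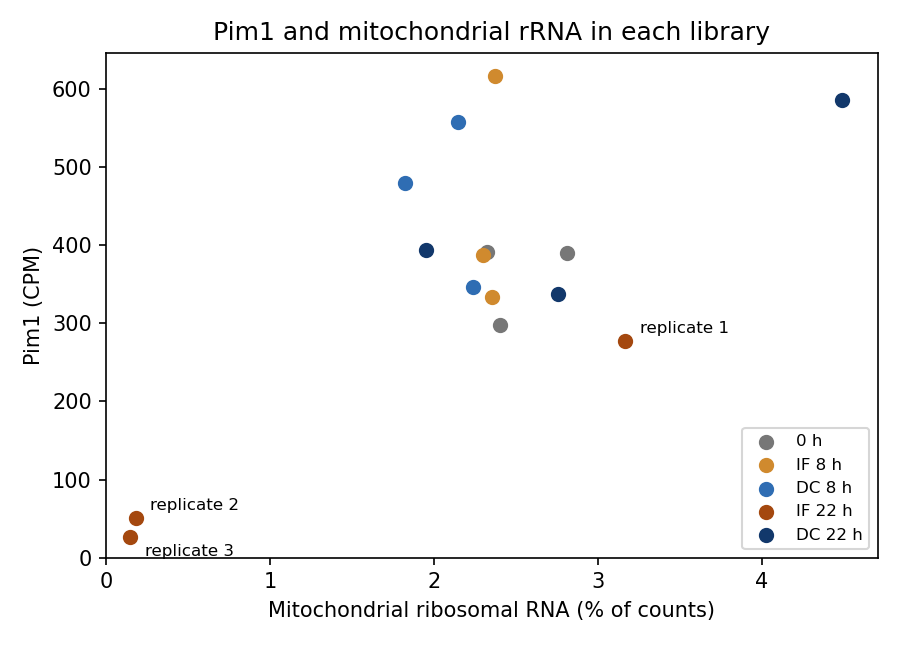
Pim1 (CPM) against the share of counts in mitochondrial ribosomal RNA (%) in each of 15 libraries, coloured by group. IF 22 h replicates 2 and 3 lie at 0.179% and 0.146% with 50.2 and 26.2 CPM of Pim1, apart from IF 22 h replicate 1 at 3.17% and 277 CPM and from the 12 libraries of the other groups.

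Pim2, whose transcription in lymphocytes is known to follow cytokine receptors closely, separated the stimuli. The unstimulated libraries had 122, 111 and 90.3 CPM in replicates 1 to 3, and IF 8 h had 134, 111 and 157 CPM. DC 8 h had 189, 249 and 238 CPM. All 3 DC values lay above all 3 IF values at 8 h, and the IF values overlapped the unstimulated ones.

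At 22 h Pim2 was at 193, 194 and 207 CPM with dendritic cells, and at 88.2, 119 and 104 CPM with immunofilaments. The 6 DC libraries (189 to 249 CPM) lay above all 9 others (88.2 to 157 CPM). Of all genes tested, 42 (0.388%) were higher in every DC library than in every other library, and Pim2 was proposed from this pattern.

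In rising order the Pim2 means were 104 ± 15.4 CPM at IF 22 h, 108 ± 16 in unstimulated cells, 134 ± 22.8 at IF 8 h, 198 ± 8.04 at DC 22 h and 225 ± 31.7 at DC 8 h. Ranges overlapped between all neighbours except IF 8 h and DC 22 h. Against unstimulated cells the log2 fold change was 1.06 ± 0.18 at DC 8 h and 0.88 ± 0.18 at DC 22 h, or 2.09-fold and 1.84-fold. It was 0.32 ± 0.18 at IF 8 h and -0.05 ± 0.18 at IF 22 h. IF was below DC by -0.75 ± 0.18 at 8 h and by -0.93 ± 0.18 at 22 h. IF 22 h differed from IF 8 h by -0.37 ± 0.18. With IF 22 h replicate 1 alone, the 22 h difference from DC was -1.17 ± 0.27, that from unstimulated cells -0.29 ± 0.26 and that from IF 8 h -0.60 ± 0.26. The change of the IF-DC difference from 8 h to 22 h was -0.19 ± 0.25 on the log2 scale, smaller than its SE, and -0.42 ± 0.31 with replicate 1 alone.

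Dendritic cells, added to the DC wells, are a cell type that the sort could hold, and some of their markers moved with Pim2. All 22 markers of the dendritic cell list were in the tables, and 20 had a count in unstimulated cells, 19 at IF 8 h and 22 in each of the 3 other groups. Their summed level was 742 to 1609 CPM in unstimulated cells, 259 to 504 at IF 8 h, 987 to 1328 at DC 8 h, 397 to 654 at IF 22 h and 529 to 720 at DC 22 h. The sum at DC 8 h overlapped that in unstimulated cells, and single markers differed in their pattern. By group mean, 9 of the 22 markers were higher in both DC groups than in the 3 other groups, 2 were lower and 11 were neither. Fscn1, the actin bundler of mature dendritic cells, was among the 9 and averaged 142 CPM at DC 8 h and 85.1 at DC 22 h. It averaged 2.31 CPM in unstimulated cells, 0.489 at IF 8 h and 23.7 at IF 22 h. Ccl22, a chemokine of mature dendritic cells, averaged 14.3 CPM at DC 8 h and 9.2 at DC 22 h against at most 1.29 in the other groups, with at least 70 counts in every DC library. Itgax, which encodes the dendritic cell integrin CD11c, was among the 2 lower ones, at 5.32 CPM at DC 8 h and 3.95 at DC 22 h against 12.7 to 20.02 in the other groups. Xcr1, a receptor of cross-presenting dendritic cells, averaged 24.1 CPM in unstimulated cells, 2.86 (DC) and 3.54 (IF) after 8 h, and 0.198 (DC) and 1.23 (IF) after 22 h. These 4 were singled out after their values were seen. Clec9a and Ccl17 had 0 counts in at least 1 library of each DC group, and Il12b in at least 1 library of DC 22 h. The summed level of the B cell list, with 8 of 12 markers in the tables, was 6.53 to 22.5 CPM in the DC libraries and 10.3 to 49.7 CPM in the others. The part of RNA from these cells in the Pim2 values was not tested.

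Pim3, the third member and the least counted, had ranges that overlapped between neighbouring groups. Unstimulated replicates 1, 2 and 3 had 19.1, 17.2 and 44.2 CPM, IF 8 h had 26.2, 24.9 and 29.7 CPM, and DC 8 h had 19.2, 29.4 and 25.4 CPM. At 22 h the values were 14.5, 19.4 and 16.3 CPM for IF and 16.8, 45.2 and 19.1 CPM for DC. Unstimulated replicate 3 and DC 22 h replicate 2 were each more than 2-fold above both partners, so they set the spread of their groups. The means ran from 16.7 ± 2.45 CPM at IF 22 h through 24.7 ± 5.15 at DC 8 h, 26.8 ± 15.1 in unstimulated cells and 26.9 ± 2.51 at IF 8 h to 27.1 ± 15.8 at DC 22 h. All neighbours in this order overlapped.

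The Pim3 log2 fold change against unstimulated cells was 0.02 ± 0.38 for IF and -0.11 ± 0.37 for DC after 8 h, and 0.02 ± 0.37 for DC and -0.67 ± 0.38 for IF after 22 h. The last value was -0.12 without unstimulated replicate 3 and -0.87 ± 0.58 with IF 22 h replicate 1 alone. IF 22 h differed from DC 22 h by -0.69 ± 0.37, by -0.12 without DC 22 h replicate 2 and by -0.90 ± 0.58 with IF 22 h replicate 1 alone. Between IF 22 h and IF 8 h, whose ranges did not overlap, the difference was -0.69 ± 0.38, and -0.89 ± 0.58 with IF 22 h replicate 1 alone. Counts behind Pim3 ranged from 75 to 409 per library. At 75 counts, in IF 8 h replicate 2, the 95% Wilson interval was 20.7 to 32.5 CPM of the deposited total, wider than the range of the 5 group means.

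In the edgeR model of all 15 libraries, Pim2 was the member that passed the threshold of an adjusted p of 0.05, in 3 of the 8 comparisons. It was 1 of 3 members in DC 8 h against unstimulated (6.82% of all genes tested passed), in DC 22 h against unstimulated (7.76%) and in IF 22 h against DC 22 h (2.43%). The last of these calls was lost without IF 22 h replicate 3, without IF 22 h replicates 2 and 3, and when the fit held only the groups compared. In the other 5 comparisons 0 of 3 passed by edgeR. Of their 15 values, 3 had an unadjusted p under 0.05 and DESeq2 passed 1, Pim2 in IF 8 h against DC 8 h. Pim2 also passed there under scaling by library size alone and without the low-count filter, and in IF 8 h against unstimulated under library size alone. Pim1 passed in all 3 comparisons of IF 22 h (with unstimulated, DC 22 h and IF 8 h) without the low-count filter and without IF 22 h replicate 1. Over all genes, 7.76% passed in IF 8 h and 6.08% in IF 22 h against unstimulated, 0.665% in IF 8 h against DC 8 h, 1.12% in IF 22 h against IF 8 h and 0.48% in DC 22 h against DC 8 h. The ranges of the groups did not overlap for Pim2 in DC 8 h (28.2% of all genes) and DC 22 h (27.1%) against unstimulated and in IF 8 h against DC 8 h (13.5%). They did not overlap for Pim1 in IF 22 h against unstimulated (30.4%), for Pim1 and Pim2 in IF 22 h against DC 22 h (19.9%), or for Pim1 and Pim3 in IF 22 h against IF 8 h (21.5%). Since the members were chosen from these contrasts, nothing is read from their counts.

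**Figure D3:**
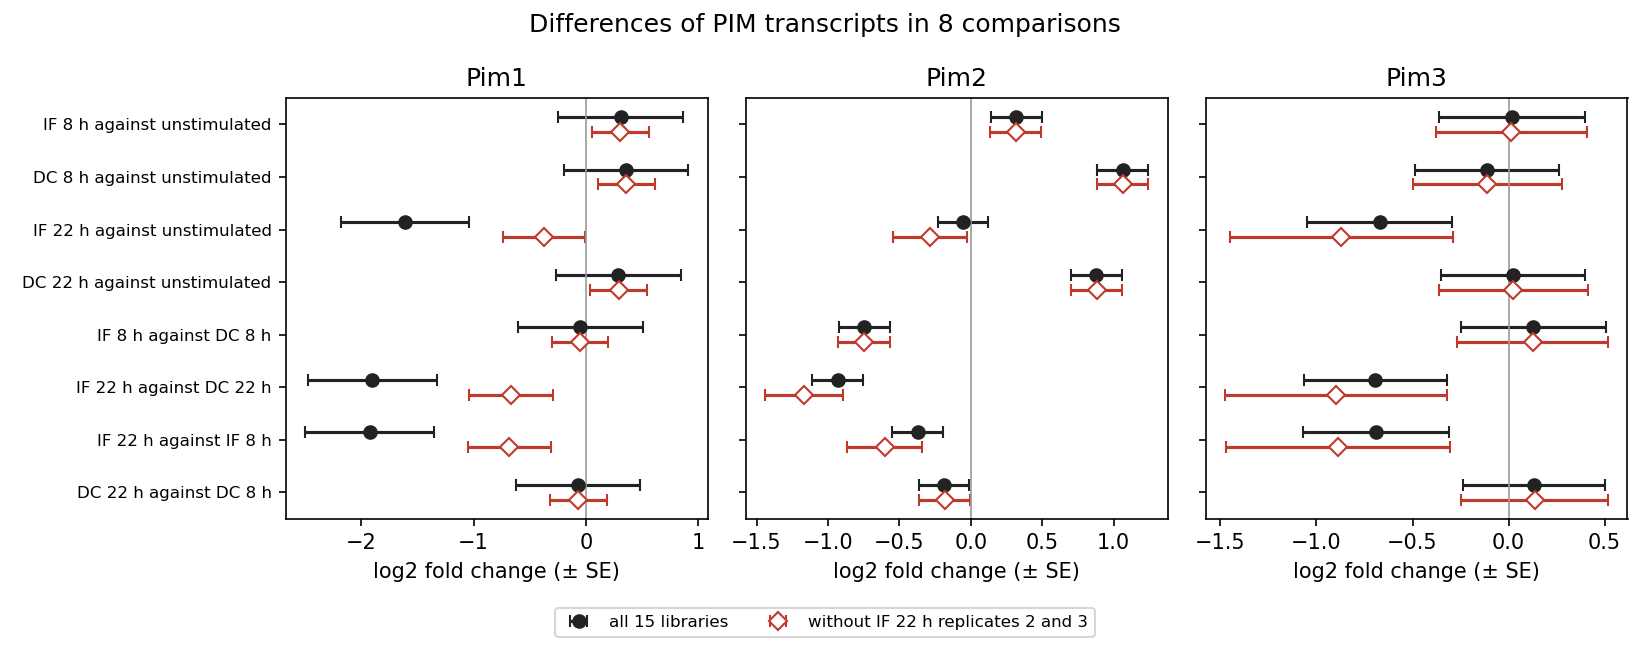
Log2 fold change ± SE of Pim1, Pim2 and Pim3 in 8 comparisons, from the edgeR model of all 15 libraries (black circles) and without IF 22 h replicates 2 and 3 (red diamonds); the x axes differ between panels. Pim1 in IF 22 h against unstimulated moves from -1.61 to -0.37 without these libraries, and Pim2 also moves in the comparisons that hold IF 22 h. Pim2 is at 1.06 in DC 8 h and 0.88 in DC 22 h against unstimulated, comparisons that hold neither library left out.

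The balance between members was followed as a ratio within each library, used only to compare libraries. The log2 ratio of Pim2 to Pim1 averaged -1.74 ± 0.34 in unstimulated cells, -1.69 ± 0.34 at IF 8 h, -1.02 ± 0.19 at DC 8 h and -1.11 ± 0.36 at DC 22 h. At IF 22 h it was -1.65 in replicate 1, within the unstimulated range, and 1.24 and 1.98 in replicates 2 and 3. The members did not follow each other closely. Pearson's r of log2 CPM over 15 libraries, which share library and depth between genes, was 0.45 for Pim1 and Pim2, 0.39 for Pim1 and Pim3 and 0.20 for Pim2 and Pim3. Over the 13 libraries without IF 22 h replicates 2 and 3 it was 0.58, 0.37 and 0.11.

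The genes most like Pim1 depended on those 2 libraries. Among 6953 genes with a mean of at least 10 CPM, the 5 with the highest r over 15 libraries were Ankrd49 (0.95), Gm20362 (0.95), Crebbp (0.94), Klf7 (0.94) and Olfr1033 (0.94). Crebbp, a histone acetyltransferase, had 20.4 to 63.4 CPM in the 13 other libraries and 0.478 and 0.664 CPM in IF 22 h replicates 2 and 3. Over 13 libraries the list became Suds3 (0.79), Rrad (0.75), Rpap3 (0.75), Crcp (0.72) and Phf7 (0.72), with no gene in common.

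The genes most like Pim2 over 15 libraries were Stat3 (r = 0.94), Bcl3 (0.93), Tnfrsf18 (0.89), Ly6a (0.89) and Bcl2l1 (0.89). Over 13 libraries Bcl3 (0.93), Stat3 (0.93) and Tnfrsf18 (0.89) stayed on the list, joined by Cd83 (0.89) and Cish (0.89). Bcl3, an atypical member of the IκB family, had 124, 149 and 202 CPM at DC 8 h and 114, 147 and 152 CPM at DC 22 h. In unstimulated cells it had 29.2, 17.2 and 33.5 CPM, and at IF 22 h 20.9, 21.6 and 17.4 CPM. Like Pim2, Bcl3 was higher in all 6 DC libraries than in the 9 others, whose highest was 51.7 CPM. Cd83 is also on the dendritic cell list, and averaged 40.2 CPM at DC 8 h and 18.1 at DC 22 h against 3.36 to 6.18 in the other groups.

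Promoters of 10 other genes, chosen after their values were seen, were looked up: Cish, Socs1, Socs2, Socs3, Bcl3, Stat3, Tnfrsf18, Bcl2l1, Cd83 and Ly6a. All but Socs2, Cd83 and Ly6a were matched. Those of Socs3 and Tnfrsf18 held a STAT match in the 250 bases before the start, a motif that 7.02% of all promoters held. Both matches are printed in capitals so that they can be set beside the PIM promoters; the Socs3 match lies 154 and the Tnfrsf18 match 99 bases before the start (RefSeq, GRCm38.p6, each on its gene's strand).
Socs3: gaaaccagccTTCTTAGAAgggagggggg
Tnfrsf18: tgctctacacTTCACAGAAggcctttaca

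The genes most like Pim3 were Rrn3 (r = 0.90), Ppie (0.84), Sae1 (0.81), Hnrnpc (0.79) and Hspa5 (0.77) over 15 libraries, and Rrn3 (0.90), Sae1 (0.88), Ppie (0.86), Mbd3 (0.85) and Setd1a (0.82) over 13. Rrn3, an initiation factor of RNA polymerase I, had its highest values in unstimulated replicate 3 (54.0 CPM) and DC 22 h replicate 2 (52.4 CPM), the same libraries that were highest for Pim3.

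The pathway around the kinases was described with 6 lists of 106 genes, 102 of them tested. Foxo3, Irs1, Deptor and Klf5 had too few counts. The lists were chosen with earlier results of these data known, so their shares are no measure of enrichment. Against unstimulated cells 27 genes passed at IF 8 h (15 higher, 12 lower), 26 at DC 8 h (18 and 8), 22 at IF 22 h (9 and 13) and 27 at DC 22 h (16 and 11), by edgeR's quasi-likelihood test with Benjamini-Hochberg adjustment over all genes. These are 26.5%, 25.5%, 21.6% and 26.5% of the tested members, beside 7.76%, 6.82%, 6.08% and 7.76% of all genes. With 1 library of the compared groups left out, the list shares ran from 14.7% to 26.5%, 19.6% to 26.5%, 10.8% to 23.5% and 12.7% to 26.5%, and those of all genes from 3.75% to 5.13%, 3.61% to 5.94%, 2.53% to 8.49% and 4.06% to 8.81%. Over all genes 3.04% were higher and 4.72% lower at IF 8 h, 2.75% and 4.07% at DC 8 h, 2.63% and 3.44% at IF 22 h, and 3.41% and 4.35% at DC 22 h. The list medians of the log2 fold change were 0.17, 0.27, 0.12 and 0.26, beside 0.02, 0.04, 0.01 and 0.04 over all genes. Scaling by library size alone moved the median of all genes to 0.26, 0.30, 0.22 and 0.37, and the split to 26 of 32, 33 of 38, 18 of 24 and 37 of 42 genes higher. With IF 22 h replicate 1 alone, 3 genes passed at IF 22 h, all higher: Tnfrsf9 of the STAT targets, Myb of the PIM partners and Zc3h12d of the decay factors, and 0 of the 3 other lists, in which 10 genes had an unadjusted p under 0.05. Over all genes 0.833% passed in that fit. The T cell marker sum, lower in all 12 stimulated libraries, moved with each of these comparisons, and its part in the counts was not tested.

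Between stimuli, 8 of 102 genes passed at 8 h (1 higher with IF, 7 lower) beside 0.665% of all genes (0.231% higher, 0.434% lower). At 22 h 15 passed (5 higher, 10 lower) beside 2.43% (1.23% higher, 1.2% lower). Under scaling by library size alone the latter were 4 higher of 17. With IF 22 h replicate 1 alone, 1 gene, Myb, passed at 22 h, beside 0.0673% of all genes. When the fit held only the groups compared, 8 passed at 22 h, beside 0.687%. Over the fits that left out 1 library, the share of all genes ran from 0.242% to 0.467% at 8 h and from 0.805% to 6.81% at 22 h. Among fits that left out 1 library, these lowered a count by over 1.5 times: to 15 without IF 8 h replicate 1 and 17 without unstimulated replicate 1 (IF 8 h), to 13 without unstimulated replicate 1 (DC 22 h), and to 9 without IF 22 h replicate 3 (IF 22 h against DC 22 h). For IF 22 h against unstimulated, each of unstimulated replicates 1, 2 and 3 and IF 22 h replicates 2 and 3 lowered it to 11 to 13. For IF 8 h against DC 8 h, the count was 4 without IF 8 h replicate 2 or 3 and 5 without DC 8 h replicate 2.

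Of the receptors and JAK-STAT components upstream of PIM transcription, 4 of 18 passed at IF 8 h (1 higher, 3 lower), 4 at DC 8 h (all higher), 5 at IF 22 h (1 and 4) and 3 at DC 22 h (1 and 2). Il2ra, the inducible chain of the interleukin-2 receptor, rose from 1.29 ± 0.99 CPM to 28.6 ± 14.6 at IF 8 h and 32.2 ± 21.3 at DC 8 h (edgeR adjusted p = 0.00961 and 0.00673), the former lost without unstimulated replicate 2. Il4ra, the interleukin-4 receptor, fell by 0.92 ± 0.19 on the log2 scale at IF 8 h (edgeR adjusted p = 0.00763). Jak2 rose by 0.91 ± 0.17 at DC 8 h (edgeR adjusted p = 0.00341), where it averaged 84.8 ± 4.47 CPM. Stat3 rose by 0.81 ± 0.18 at DC 8 h (edgeR adjusted p = 0.0120), a call lost without unstimulated replicate 2 or 3 or DC 8 h replicate 2. In IF 8 h against DC 8 h, 0 of 18 passed by edgeR, with 4 at an unadjusted p under 0.05, and DESeq2 called 2. In IF 22 h against DC 22 h 2 passed, both lower with IF, among them Stat3 (log2 -0.75 ± 0.18, edgeR adjusted p = 0.0369). The Stat3 call was lost without IF 22 h replicates 2 and 3, where the value was -0.94 ± 0.28, and in 5 of 6 fits that left out 1 library. It was also lost with the replicate number as a block and when the fit held only the groups compared.

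PIM genes are themselves textbook targets of STAT5 and STAT3. Of 17 other targets, 8 passed at IF 8 h (5 higher, 3 lower), 7 at DC 8 h (6 and 1), 6 at IF 22 h (3 and 3) and 9 at DC 22 h (8 and 1). Directly compared, 4 were lower with IF than with DC at 8 h and 5 at 22 h, and none was higher. The summed level of the dendritic cell list was lower with IF at 8 h (259 to 504 against 987 to 1328 CPM) and overlapped at 22 h (397 to 654 against 529 to 720 CPM). Its members Fscn1, Ccl22 and Cd83 were lower with IF, with means of 0.489, 1.29 and 6.18 CPM against 142, 14.3 and 40.2 with DC at 8 h, and of 23.7, 1.18 and 3.36 CPM against 85.1, 9.2 and 18.1 at 22 h. By mean, Itgax and Xcr1 were higher with IF, at 12.7 and 3.54 CPM against 5.32 and 2.86 at 8 h. At 22 h their means were 20.02 and 1.23 CPM against 3.95 and 0.198. Xcr1 had 0 counts in at least 1 IF 8 h library and at least 16 counts in every DC 8 h library. The part of these markers in these IF-DC differences, and in those of the other lists, was not tested. The list median was -0.33 at 8 h and -0.63 at 22 h, beside -0.01 and -0.02 over all genes. With IF 22 h replicate 1 alone it was -0.73 at 22 h, beside -0.06, and 0 of 17 passed there by edgeR, with 10 at an unadjusted p under 0.05.

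Cish, a SOCS-family feedback inhibitor that STAT5 induces, had 34.0, 115 and 43.8 CPM at DC 8 h and 29.4, 81.5 and 27.8 CPM at DC 22 h. It had 4.55, 4.16 and 3.96 CPM in unstimulated cells, 10.7, 8.95 and 4.02 at IF 8 h and 3.09, 2.27 and 4.85 at IF 22 h. As with Pim2, every DC library was above every other one. Cish rose by 3.92 ± 0.55 at DC 8 h and 3.44 ± 0.54 at DC 22 h on the log2 scale (edgeR adjusted p = 0.000351 and 0.00101). IF was lower than DC by -3.00 ± 0.52 at 8 h and -3.71 ± 0.53 at 22 h (edgeR adjusted p = 0.0108 and 0.000973); the former call was lost without IF 8 h replicate 3 and the latter without IF 22 h replicates 2 and 3, where the value was -3.89 ± 0.88.

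Socs3, a feedback inhibitor that STAT3 induces, went below the unstimulated level with IF. It had 37.1, 29.1 and 39.1 CPM in unstimulated cells, 10.7, 8.29 and 9.91 at IF 8 h, 48.1, 36.1 and 70.6 at DC 8 h, 19.2, 13.6 and 15.3 at IF 22 h and 104, 62.3 and 143 at DC 22 h. It fell by 1.85 ± 0.32 on the log2 scale at IF 8 h (edgeR adjusted p = 0.00172). At IF 22 h, with replicate 1 alone, the log2 fold change against unstimulated cells was -0.87 ± 0.44. IF was lower than DC by -2.41 ± 0.32 at 8 h and by -2.69 ± 0.30 at 22 h (edgeR adjusted p = 0.00101 and 0.000133). The latter call was lost without IF 22 h replicates 2 and 3, where the value was -2.43 ± 0.48.

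Socs2 had 33.0, 20.0 and 13.2 CPM at DC 8 h and 27.4, 12.7 and 13.7 CPM at DC 22 h, and at most 2.79 CPM in any other library. Its IF-DC difference passed at 8 h and 22 h (edgeR adjusted p = 0.00703 and 0.0144). The former call was lost without IF 8 h replicate 1, the latter without IF 22 h replicate 2 or 3 or DC 22 h replicate 1. Without both IF 22 h replicates 2 and 3 the 22 h call was lost too, with a log2 difference of -3.63 ± 1.19 against -3.45 ± 0.70 in all libraries. Socs1 rose by 1.43 ± 0.23 at DC 22 h on the log2 scale (edgeR adjusted p = 0.00129). Bcl2, a survival gene, fell by 1.55 ± 0.21 at IF 8 h and by 1.58 ± 0.20 at DC 8 h (edgeR adjusted p = 0.000221 and 0.000171). Bcl2l1, which encodes Bcl-xL, averaged 10.8 ± 3.85 CPM in unstimulated cells, 13.3 ± 5.72 (IF) and 55.4 ± 29.6 (DC) after 8 h, and 9.08 ± 1.99 (IF) and 36.3 ± 17.2 (DC) after 22 h. It rose at DC 8 h and DC 22 h (edgeR adjusted p = 0.00272 and 0.0166) and did not pass at IF 8 h or IF 22 h. The DC 22 h call was lost without unstimulated replicate 1 or 3 or DC 22 h replicate 2. Tnfrsf9, the costimulatory receptor 4-1BB, rose under both stimuli, from 4.88 ± 1.33 CPM to 173 ± 47.4 at IF 8 h and 143 ± 102 at DC 8 h (edgeR adjusted p = 0.000107 and 0.000184).

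**Figure D4:**
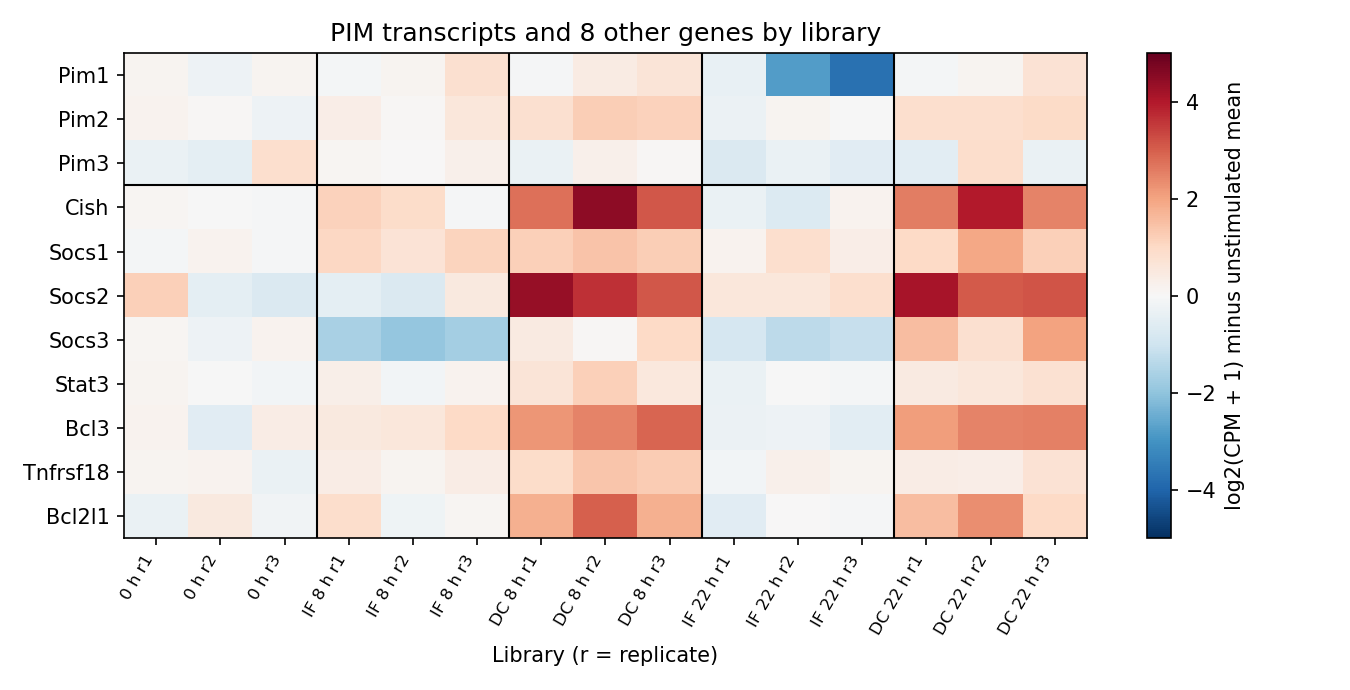
Log2(CPM + 1) of the 3 PIM transcripts and 8 other genes in each of 15 libraries, minus the mean of the unstimulated libraries; red is higher, blue is lower. Cish, Socs2, Bcl3 and Bcl2l1 are red in the 6 DC libraries, where Pim2 is higher, and the darkest blue cells of Pim1 are IF 22 h replicates 2 and 3.

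Of the list of NF-κB and ETS regulators, 5 of 14 tested genes passed at IF 8 h and 5 at DC 8 h, all higher. At IF 22 h 1 passed (lower) and at DC 22 h 5 (3 higher, 2 lower). This list also holds Klf2, Egr1, Hif1a and Irf4, which belong to neither family. Hif1a was among those higher at IF 8 h and DC 22 h, and Egr1 among those lower at DC 22 h. Both Hif1a calls were lost without unstimulated replicate 1, among other fits. Nfkb2, which encodes the p100 precursor, rose by 1.40 ± 0.21 at IF 8 h, 1.94 ± 0.21 at DC 8 h and 1.47 ± 0.21 at DC 22 h on the log2 scale (edgeR adjusted p = 0.000517, 3.95e-05 and 0.000396), and was 0.26 ± 0.20 at IF 22 h (0.18 ± 0.30 with replicate 1 alone). Relb, its partner, rose by 1.55 ± 0.19 at IF 8 h and 1.72 ± 0.19 at DC 8 h (edgeR adjusted p = 9.76e-05 and 4.43e-05). Between IF 22 h and IF 8 h, 4 pathway genes passed beside 1.12% of all genes (0.48% lower), all lower at 22 h, among them Relb, Nfkb2 and Nfkbia. When IF 22 h replicate 1 stood alone, 0 of all genes passed by edgeR, with 654 at an unadjusted p under 0.05, and the log2 difference was -1.45 ± 0.30 for Relb (-1.22 ± 0.19 in all libraries), -1.22 ± 0.32 for Nfkb2 (-1.14 ± 0.20) and -0.63 ± 0.26 for Nfkbia (-0.89 ± 0.18). The count was 2 when IF 8 h replicate 1 or IF 22 h replicate 2 or 3 was left out, and 9 when IF 22 h replicate 1 was, with 0.215% to 4.85% of all genes over such fits. Between DC 22 h and DC 8 h 2 passed beside 0.48% of all genes (0.102% lower), both lower at 22 h, Cdkn1a and Relb. That count was 0 when DC 8 h replicate 1 or 2 or DC 22 h replicate 1 was left out, 1 for DC 8 h replicate 3 or DC 22 h replicate 2, and 4 for DC 22 h replicate 3, with 0.00898% to 1.24% of all genes over such fits. Libraries of the same replicate number deviated together in these DC groups, and with the number as a block in the DC groups only, 7 passed (2 higher, 5 lower), Cdkn1a and Relb included, beside 1.23% of all genes.

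Of the factors of AU-rich mRNA decay, 3 of 14 passed in each stimulated group, 1 higher and 2 lower except at IF 22 h (2 and 1). Zfp36, or tristetraprolin, which binds the nonamer found in the Pim1 transcript, averaged 131 ± 19.5 CPM in unstimulated cells. The log2 fold change was -1.87 ± 0.27 (IF) and -1.81 ± 0.26 (DC) after 8 h, and -1.53 ± 0.26 (IF) and -1.71 ± 0.26 (DC) after 22 h (edgeR adjusted p = 0.000394, 0.000473, 0.00185 and 0.000775). Without IF 22 h replicates 2 and 3 the IF 22 h value was -1.81 ± 0.41 and its call was lost. Zc3h12d, an RNase of the Regnase family, rose by 2.5 ± 0.31, 2.46 ± 0.30, 2.26 ± 0.30 and 1.93 ± 0.30 in the same order (edgeR adjusted p = 9.35e-05, 0.00013, 0.00027 and 0.000959). With IF 22 h replicate 1 alone, the IF 22 h value of Zc3h12d was 2.42 ± 0.39 and still passed (edgeR adjusted p = 0.00729). The IF-DC difference of Zfp36 was -0.06 ± 0.26 at 8 h and 0.19 ± 0.25 at 22 h (-0.10 ± 0.37 with IF 22 h replicate 1 alone).

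Downstream, the list of PIM substrates and partners concerns proteins that PIM kinases phosphorylate or bind, while only transcripts were measured. Of 19 tested, 4 passed at IF 8 h (3 higher, 1 lower), 4 at DC 8 h (2 and 2), 4 at IF 22 h (2 and 2) and 5 at DC 22 h (3 and 2). Cdkn1a, the cell cycle inhibitor p21, rose from 3.11 ± 2.31 CPM to 88.6 ± 69.4 at DC 8 h (log2 4.91 ± 0.61, edgeR adjusted p = 0.00013). It was lower at IF 8 h than at DC 8 h by -2.81 ± 0.53 (edgeR adjusted p = 0.0187), a call lost without IF 8 h replicate 1 or 2 or DC 8 h replicate 2. Foxo1, a transcription factor of quiescence, fell in all 4 stimulated groups, with a log2 fold change of -0.85 ± 0.19 (IF) and -1.02 ± 0.19 (DC) after 8 h, and -0.997 ± 0.19 (IF) and -0.87 ± 0.19 (DC) after 22 h (edgeR adjusted p = 0.0117, 0.00326, 0.00434 and 0.00877). Scaling by library size alone ended the IF 8 h and DC 22 h calls. The IF 8 h call was also lost without IF 8 h replicate 1 or 3, and the IF 22 h call without IF 22 h replicates 2 and 3, where the value was -0.88 ± 0.26.

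Myb, a transcription factor and PIM1 partner, was higher with IF. It had 7.63, 8.31 and 14.7 CPM in unstimulated cells, 96.5, 69.3 and 95.4 at IF 8 h and 116, 131 and 121 at IF 22 h. With DC it had 21.9, 27.4 and 15 CPM at 8 h and 21.7, 13.5 and 11.6 CPM at 22 h, so IF and DC did not overlap at either time. The IF-DC difference was 2.02 ± 0.28 at 8 h and 2.98 ± 0.29 at 22 h on the log2 scale (edgeR adjusted p = 0.00144 and 3.88e-05), and it passed in all 14 alternatives at both times. Cxcr4, a chemokine receptor, fell by 1.87 ± 0.36 on the log2 scale at DC 8 h, and fell by 2.21 ± 0.36 at DC 22 h (edgeR adjusted p = 0.00441 and 0.00137). Myc, which PIM kinases stabilise as a protein, averaged 59.2 ± 18.3 CPM at IF 8 h and 66.1 ± 38.5 at DC 8 h beside 37.3 ± 3.26 in unstimulated cells, and did not pass. Bad, Cdkn1b, Akt1s1 and Eif4b, whose proteins are textbook PIM targets, did not pass in any stimulated group against unstimulated cells.

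Of the AKT, mTOR and translation genes, 3 of 20 passed at IF 8 h (all lower), 3 at DC 8 h (all lower), 3 at IF 22 h (1 higher, 2 lower) and 2 at DC 22 h (both lower). Between IF and DC, 0 of 20 passed by edgeR at 8 h, with 1 at an unadjusted p under 0.05 and 0 by DESeq2, and 0 of 20 at 22 h, with 6 unadjusted and 1 by DESeq2. Rps6, a ribosomal protein, fell by 0.45 ± 0.11 at IF 8 h and by 0.66 ± 0.11 at DC 22 h on the log2 scale (edgeR adjusted p = 0.0157 and 0.00109). The former call was lost under library size alone, without the low-count filter, and without unstimulated replicate 2 or IF 8 h replicate 1. Ribosomal protein genes have many near-identical pseudogenes, so the Rps6 count is uncertain. Sgk1, an AKT-related kinase, fell by 1.68 ± 0.40 at IF 8 h (edgeR adjusted p = 0.0166), a call lost without IF 8 h replicate 1 or 3. Eif4ebp1, which like Eif4ebp2 binds eIF4E, averaged 31.9 ± 3.57 CPM at IF 22 h against 16.4 ± 0.78 in unstimulated cells (edgeR adjusted p = 0.0438). Leaving out any 1 of the 6 libraries ended that call.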

How the data were processed

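Per the labels' protocols, RNA was read by an adapted CEL-seq protocol (barcoded oligo-dT primer, pooling after second-strand synthesis, in vitro transcription), sequenced paired-end on a NextSeq 500. BWA and the mm10 build are named in the submitters' processing notes. The annotation, the counting program and the use of strand and of molecular identifiers were not given in the sources used here. The authors deposited whole-number counts per gene, not normalized, in 1 table per library, so intervals cover counting error only.

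The model was fitted with edgeR 4.0.16 and limma 3.58.1 in R 4.3.3. filterByExpr (minimum count 10, minimum total 15) left 10831 of 17493 genes and removed at most 0.124% of a library's counts. TMM scaling and 1 quasi-likelihood model with 5 group means served 8 comparisons, two-sided, adjusted by Benjamini-Hochberg over all genes, with a threshold of 0.05. The prior count was 0.125 for fold changes and 2 for the log2 CPM behind correlations.

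The members and lists were chosen with earlier results of these data known. Open to naming were all members, up to 3 genes with the smallest p-value per list and comparison among those that passed, and the 5 genes most correlated with each member. Not every list gene open to naming is given in every comparison. Myc, Bad, Cdkn1b, Akt1s1, Eif4b and the genes of a set of 5 or fewer were named beyond this rule, after their values were seen. Of the genes that enter the list counts, 1 is not reported here. Alternatives were DESeq2 size factors, library size alone, no filter, DESeq2 1.42.0, only the groups compared, a replicate block, thinned counts and left-out libraries. The code was tested on simulated data. RefSeq promoters were matched by symbol for all 3 members. Same-number libraries had deviations from their group means correlated above 0.1 in all 3 pairs for DC 8 h with DC 22 h (0.12, 0.40 and 0.24) and for no other of the 10 pairs of groups, so a block within the DC groups was added after seeing the data. No 2 libraries of a group held counts equal within sampling noise.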

Additional observations from a re-analysis of the deposited data

Results flagged for a closer look

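At 8 h, every IF library lay below and every DC library above the range of the unstimulated libraries for Nfkbia, which encodes the inhibitor IκBα: the means were 261 CPM for IF, 529 for DC and 349 for unstimulated cells. The direct IF-DC test passed (edgeR adjusted p = 0.0126), a call lost without IF 8 h replicate 1, 2 or 3 or DC 8 h replicate 2. The decrease of Nfkbia from unstimulated cells at IF 8 h did not pass by edgeR. Of all genes tested, 13.5% had ranges that did not overlap between IF 8 h and DC 8 h.

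At 22 h, Socs3 and Runx3 did the same. Ranges of IF 22 h and DC 22 h did not overlap for 19.9% of all genes tested. Socs3, the feedback inhibitor, averaged 16 CPM with IF, 103 with DC and 35.1 unstimulated (edgeR adjusted p = 0.000133 for IF against DC). Runx3, a transcription factor of CD8+ T cells and a PIM1 partner, averaged 41.7 CPM with IF, 136 with DC and 87.6 unstimulated (edgeR adjusted p = 0.00315). Runx3 had 65.1, 34.7 and 25.3 CPM in IF 22 h replicates 1 to 3. Both calls were lost without IF 22 h replicates 2 and 3, where the log2 IF-DC difference was -2.43 ± 0.48 for Socs3 and -1.07 ± 0.31 for Runx3 (-2.69 ± 0.30 and -1.72 ± 0.28 in all libraries), and the Runx3 call also when the fit held only the groups compared. The change of the IF-DC difference between 8 h and 22 h did not pass by edgeR for any of the 37 members and list genes open to naming. It did not pass for any gene tested, and 858 genes had an unadjusted p under 0.05.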

How the results depend on the processing

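No value that passed the threshold reversed under the alternatives run. Member values near 0 that did not pass changed sign in some fits that left out 1 library, as the ranges below show. Scaling by library size alone moved Pim2 to 0.56 (IF 8 h), 1.33 (DC 8 h) and 1.21 (DC 22 h) against unstimulated, with the median of all genes at 0.26, 0.30 and 0.37, and the pathway count at DC 22 h to 42. Without IF 22 h replicates 2 and 3, Pim2 was -0.29 against unstimulated and -1.17 against DC 22 h, Pim3 was -0.89 against IF 8 h, and the pathway counts were 3 (against unstimulated), 1 (against DC 22 h) and 0 (against IF 8 h, by edgeR, with 9 at an unadjusted p under 0.05); the cause was not tested beyond the smaller number of samples. Without the low-count filter the counts were 18 (IF 8 h against DC 8 h), 27 (IF 22 h against DC 22 h), 11 (IF 22 h against IF 8 h) and 8 (DC 22 h against DC 8 h), the cause not tested. With only the groups compared, edgeR gave 8 (IF 22 h against DC 22 h) and 0 (DC 22 h against DC 8 h, with 16 at an unadjusted p under 0.05), from fits with fewer samples. DESeq2 gave 9 for DC 22 h against DC 8 h, the cause not tested. DESeq2 size factors and thinning to the smallest library moved no member value by over 1 SD and no pathway count by over 1.5 times.

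With 1 library of the compared groups left out at a time, the Pim1 log2 fold change ran from 0.00 to 0.48 (IF 8 h against unstimulated), from 0.21 to 0.53 (DC 8 h against unstimulated), from -3.24 to -1.13 (IF 22 h against unstimulated), from 0.02 to 0.45 (DC 22 h against unstimulated), from -0.36 to 0.11 (IF 8 h against DC 8 h), from -3.55 to -1.44 (IF 22 h against IF 8 h), from -0.33 to 0.09 (DC 22 h against DC 8 h), from -3.53 to -1.43 (IF 22 h against DC 22 h). The Pim2 value ran from 0.19 to 0.43 (IF 8 h against unstimulated), from 0.96 to 1.17 (DC 8 h against unstimulated), from -0.16 to 0.05 (IF 22 h against unstimulated), from 0.78 to 0.99 (DC 22 h against unstimulated), from -0.87 to -0.63 (IF 8 h against DC 8 h), from -0.49 to -0.24 (IF 22 h against IF 8 h), from -0.30 to -0.11 (DC 22 h against DC 8 h), from -1.04 to -0.83 (IF 22 h against DC 22 h). That of Pim3 ran from -0.23 to 0.57 (IF 8 h against unstimulated), from -0.34 to 0.45 (DC 8 h against unstimulated), from -0.91 to -0.12 (IF 22 h against unstimulated), from -0.54 to 0.59 (DC 22 h against unstimulated), from -0.03 to 0.27 (IF 8 h against DC 8 h), from -0.80 to -0.60 (IF 22 h against IF 8 h), from -0.42 to 0.38 (DC 22 h against DC 8 h), from -0.94 to -0.12 (IF 22 h against DC 22 h). The pathway count ran from 15 to 27 (IF 8 h against unstimulated), from 20 to 27 (DC 8 h against unstimulated), from 11 to 24 (IF 22 h against unstimulated), from 13 to 27 (DC 22 h against unstimulated), from 4 to 8 (IF 8 h against DC 8 h), from 2 to 9 (IF 22 h against IF 8 h), from 0 to 4 (DC 22 h against DC 8 h), from 9 to 19 (IF 22 h against DC 22 h).

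The replicate number paired DC 8 h with DC 22 h by the data, and none of the 9 other pairs of groups: over all groups 4 of 30 same-number pairs had deviations correlated above 0.1 (lowest -0.19, highest 0.40). With a block in the DC groups only, chosen after seeing the data, the pathway count of DC 22 h against DC 8 h was 7, and the members were -0.08, -0.18 and 0.01. With the replicate number as a block in all groups, the pathway counts were 27 (IF 8 h against unstimulated), 28 (DC 8 h against unstimulated), 21 (IF 22 h against unstimulated), 27 (DC 22 h against unstimulated), 9 (IF 8 h against DC 8 h), 13 (IF 22 h against DC 22 h), 4 (IF 22 h against IF 8 h), 2 (DC 22 h against DC 8 h), each within 1.5 times the count without it. The single-gene calls of Rps6 at IF 22 h and of Stat3 and Zfp36l2 in IF 22 h against DC 22 h were lost under the block. The depth limits Pim3 most, at 75 to 409 counts per library.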
